A study of Mus musculus with 4 samples.

Results

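The genes described here encode 9 actin-binding proteins, grouped as actin crosslinkers. They are the α-actinins *Actn1* and *Actn4*, the filamins *Flna* and *Flnc*, the plastins *Pls1*, *Pls3* and *Lcp1*, the fascin *Fscn1* and the caldesmon *Cald1*. They were taken by name from the deposited table of the 2 d experiment, and all 9 had a mean normalized count above 0, as did 17044 of the 24421 genes in that table. RNA was sequenced in bulk from FACS-purified hair follicle stem cells (HF-SCs) of the mouse, with 2 control and 2 *miR-205*-induced libraries. Induced mice carried a *Krt14*-driven rtTA, a doxycycline-dependent activator made in basal keratinocytes, together with a pTRE2-*miR-205* transgene that this activator switches on. All mice also carried the K14-H2BGFP allele, which marks keratinocyte nuclei. The labels give the strain as C57BL/6 and collection at postnatal day 44 after doxycycline chow from day 42, that is 2 d of induction. They call the control mice untreated, whereas the methods describe doxycycline for both groups. Live cells with high H2BGFP, high α6 integrin and high CD34 but no Sca1 were collected as HF-SCs, and whether each library came from a single mouse was not stated.

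The deposited table holds 1 pooled value for each gene, the mean normalized count over the 4 libraries. Induced and control libraries are therefore not compared here, and the values below describe these HF-SCs across both groups. The fold changes in the table are the product of the authors' own comparison and were not used. Total depth was not given, but the smallest means in the table repeat in 4 steps, each the value of 1 read in 1 library. These steps gave relative depths of 1.24, 1.18, 0.966 and 0.716, the largest 1.73 times the smallest. Depth here means the size factor that normalized each library, not its total reads. The libraries are numbered 1 to 4 in that order, and none was assigned to a group.

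Actin crosslinkers set the architecture of the cell cortex. α-Actinin is an antiparallel rod that spaces filaments in contractile bundles and ties them to integrin and cadherin adhesions, whereas filamin is a flexible V-shaped dimer that joins filaments at wide angles into a gel. Plastins and fascin pack filaments into tight parallel bundles such as those of microvilli and filopodia, and caldesmon binds along actin and tropomyosin and restrains myosin. In epidermis and hair follicle, α-actinin and filamin lie at cell-cell junctions, focal adhesions and the cortical actin network.

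*miR-205*, the microRNA induced in these mice, pairs with its targets through a seed, bases 2 to 8, shown here in capitals because the matches counted in the crosslinkers were defined by it. The mature sequence from RefSeq lies at chr1:193507503-193507524 on the minus strand of GRCm38.p6.
miR-205-5p: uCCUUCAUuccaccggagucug

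The full match to this seed, ATGAAGG, occurred in the 3'UTR of 0 of the 9 crosslinkers, compared with 10.4% of 15257 genes with a complete protein-coding model in GENCODE vM1. Their 3'UTRs were not short as a group, with a median of 1087 bases against 975 over all genes, and ranged from 329 in *Flna* to 2238 in *Cald1*. The shorter match TGAAGG, to bases 2 to 7, occurred in the 3'UTRs of *Flnc* and *Lcp1*, that is 2 of 9, compared with 33.4% of all genes. It began at base 418 of 679 in *Flnc* and at base 1412 of 1504 in *Lcp1*. In *Lcp1* an A follows the match, which extends it to bases 1 to 7 of *miR-205*, whereas in *Flnc* a G follows. The share of all genes with that extended match was not counted. *Cald1* had 1 in another transcript but none in the longest. The sites of both crosslinkers are printed with the match in capitals.
Flnc 3'UTR: cagccctagagTGAAGGgcttggaaaag
Lcp1 3'UTR: atctgcctccgTGAAGGaaggatattat

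Within coding sequence, ATGAAGG occurred once each in *Flna*, *Flnc*, *Pls1* and *Lcp1*, or 4 of 9, compared with 21.6% of all genes, and the filamins have coding sequences of 7920 and 8181 bases. In the plastins *Pls1* and *Lcp1* it began at bases 1457 and 1451 of coding sequences of 1893 and 1884 bases, so it lay at nearly the same place in both. These coding sites are shown because the 3'UTRs had no full match. A match is a run of letters, and neither a match nor its absence says whether *miR-205* binds the transcript, since binding was not part of the data used here.
Flna coding: tcaaggtcttcATGAAGGtcatacctttg
Flnc coding: gcgagggacgcATGAAGGaaagcatcact
Pls1 coding: gcaggacttaaATGAAGGgaacgcaacac
Lcp1 coding: acaagacctcaATGAAGGaaaccgaactc

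Levels spanned more than 3 orders of magnitude, from *Flna* with a mean normalized count of 20281 to *Pls1* with 4.68. Of the 9 genes, 8 lay above the median of 117 over all genes with a mean above 0, and only *Pls1* lay below it. The median of the 9 was 1650. Since a longer transcript yields more reads, the order of the 9 and the fold differences between them are given per kilobase (kb) of longest complete transcript. Percentiles, counts above the median gene and list medians use the mean not divided by length, unless per kb is stated. On that scale the order was *Actn4*, *Flna*, *Actn1*, *Pls3*, *Fscn1*, *Cald1*, *Flnc*, *Lcp1* and *Pls1*, and 7 of the 9 lay above the median of 57.1 per kb over 15257 genes. No replicate error goes with these means, and the errors given below, at 95%, cover read counting alone.

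The α-actinins led. *Actn4*, the actinin that also shuttles to the nucleus in many cells, lies at chr7:28893248-28962351 on GRCm38.p6 and had a mean normalized count of 11492 with a counting error of 0.924% of the mean, which placed it at percentile 99.2 of genes with a mean above 0. Divided by its transcript of 3877 bases, its level was 2964 per kb, rank 239 of 15257. *Actn1*, the actinin of focal adhesions and stress fibres, lies at chr12:80167542-80260420 and had a mean of 6957 (counting error 1.19%, percentile 98.4) and a level of 1861 per kb, rank 363. *Actn4* was thus 1.59 times as high as *Actn1* per kb. The muscle actinins of the sarcomeric Z-disc were nearly absent, with means of 0.866 for *Actn2* and 2.92 for *Actn3*. The reads behind these were 0, 0, 2 and 1 in libraries 1 to 4 for *Actn2* and 1, 1, 7 and 2 for *Actn3*. The proteins of *Actn1* and *Actn4* were identical at 85.9% of aligned residues, yet the longest stretch their coding sequences share was 65 bases, shorter than a read of 150 nt.

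Among the filamins, *Flna* lies at chrX:74223461-74249854 and had the highest mean of the 9, 20281 (counting error 0.696%, percentile 99.7). Its transcript of 8456 bases brought the level to 2398 per kb, rank 281. *Flnc*, the filamin of striated muscle, lies at chr6:29433153-29461889 and had a mean of 1650 (counting error 2.44%, percentile 91.5) and a level of 180 per kb, rank 3913. Per kb, *Flna* exceeded *Flnc* 13.3-fold. *Flna* and *Flnc* share 72.9% of aligned residues, and 26 bases is their longest common coding stretch.

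The plastins divided sharply. *Pls3*, the plastin of solid tissues, lies at chrX:75785653-75875182 and had a mean of 4741 (counting error 1.44%, percentile 97.4) and a level of 1462 per kb, rank 473. *Lcp1*, the leukocyte plastin, lies at chr14:75131105-75230842 and had a mean of 184.8 (counting error 7.29%, percentile 57.3), which is 48.1 per kb, rank 8083. *Pls1*, the plastin of intestinal microvilli and inner ear stereocilia, lies at chr9:95752642-95845306 and had a mean of 4.68 (counting error 45.8%, percentile 20.2), which is 1.26 per kb, rank 13164. Per kb, *Pls3* exceeded *Lcp1* 30.4-fold and *Pls1* 1158-fold. *Pls3* and *Lcp1* are 79.7% identical over aligned residues, *Pls3* and *Pls1* 75.5%, and the longest coding stretch shared by any plastin pair was 24 bases.

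*Fscn1*, the fascin of filopodia, lies at chr5:142960355-142973189 and had a mean of 1258 (counting error 2.79%, percentile 88.6) and a level of 470 per kb, rank 1515. Its paralogs were barely detected: *Fscn2*, a fascin of retina, had 5, 0, 0 and 1 reads in libraries 1 to 4, and *Fscn3*, a fascin of testis, had 4, 4, 0 and 0. *Cald1* lies at chr6:34598495-34775469 and had a mean of 976 (counting error 3.17%, percentile 85.3) and a level of 204 per kb, rank 3525. It is the gene whose level depended most on the transcript chosen, since its 6 complete models run from 2142 to 4777 bases. With the shortest its level was 456 per kb. A gene-level count cannot tell the long smooth-muscle form of caldesmon from the short form of other cells, and the longest model encodes 768 residues.

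**Figure D1:**
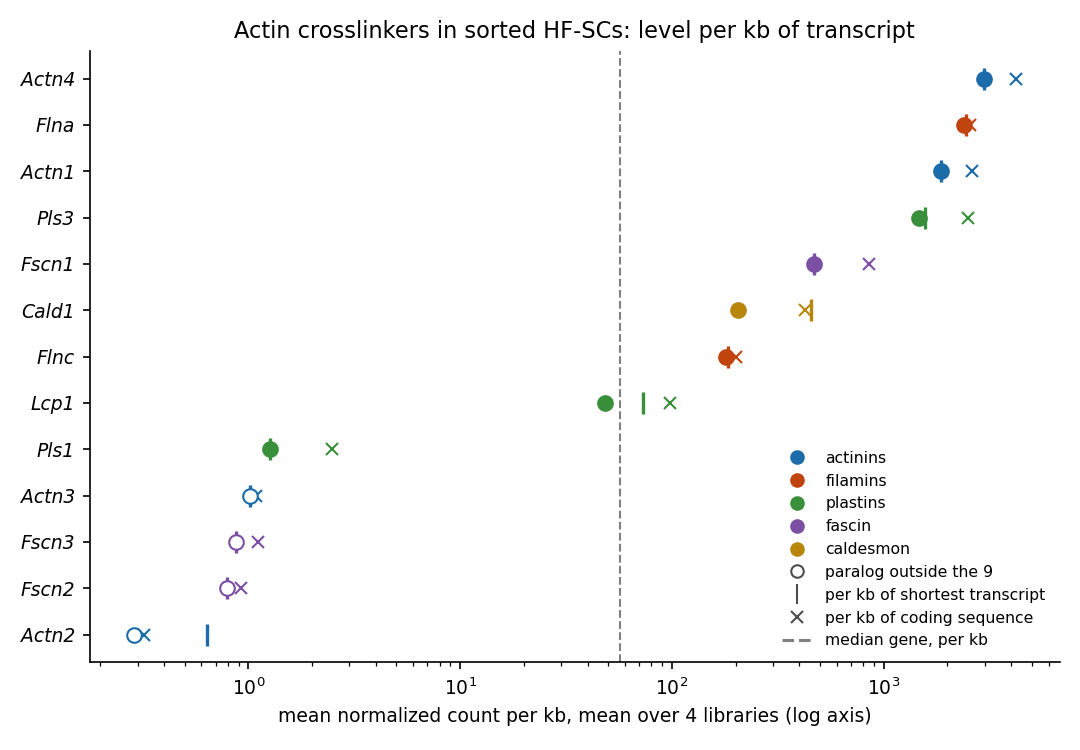
Mean normalized count per kb (log axis) of the 9 crosslinkers (filled circles) and 4 paralogs (open circles), with the level per kb of the shortest complete transcript (vertical tick) and of coding sequence (cross), and the median gene as a dashed line. *Actn4*, *Flna*, *Actn1* and *Pls3* lie between 1462 and 2964 per kb, and *Pls1* and the paralogs lie near or below 1.26.

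Adjacent genes in this order stood 1.24-fold apart for *Actn4* and *Flna*, 1.29-fold for *Flna* and *Actn1*, 1.27-fold for *Actn1* and *Pls3*, and 1.13-fold for *Cald1* and *Flnc*. For scale only, *Cald1*, described below, ranged 1.55-fold between the lowest and highest of the 4 libraries. That range is of single libraries, may hold a difference between the groups, and is not the error of a ratio between means. No spread across libraries is known for the genes of higher level. The steps from *Flna* to *Actn1* and from *Actn1* to *Pls3* were under that size with every length tried, and the step from *Actn4* to *Flna* was under it except with coding length, where it was 1.64-fold. The steps from *Pls3* to *Fscn1* (3.11-fold), from *Flnc* to *Lcp1* (3.74-fold) and from *Lcp1* to *Pls1* (38.1-fold) were over it with every length tried. The place of *Cald1* depended on its transcript. *Fscn1* stood 2.30-fold above it with the longest transcript but 1.03-fold with the shortest, and *Cald1* stood 2.47-fold above *Flnc* with the shortest but 1.13-fold with the longest.

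Summed over the 9 genes per kb, α-actinins held 50.3% of the level, filamins 26.9%, plastins 15.8%, fascin 4.90% and caldesmon 2.13%. *Actn4* alone held 30.9%, *Flna* 25.0%, *Actn1* 19.4% and *Pls3* 15.2%, and *Lcp1* and *Pls1* held 0.502% and 0.0132%. Without division by length the filamins came first with 46.1% and the α-actinins followed with 38.8%, because the filamin transcripts are the longest of the set.

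**Figure D2:**
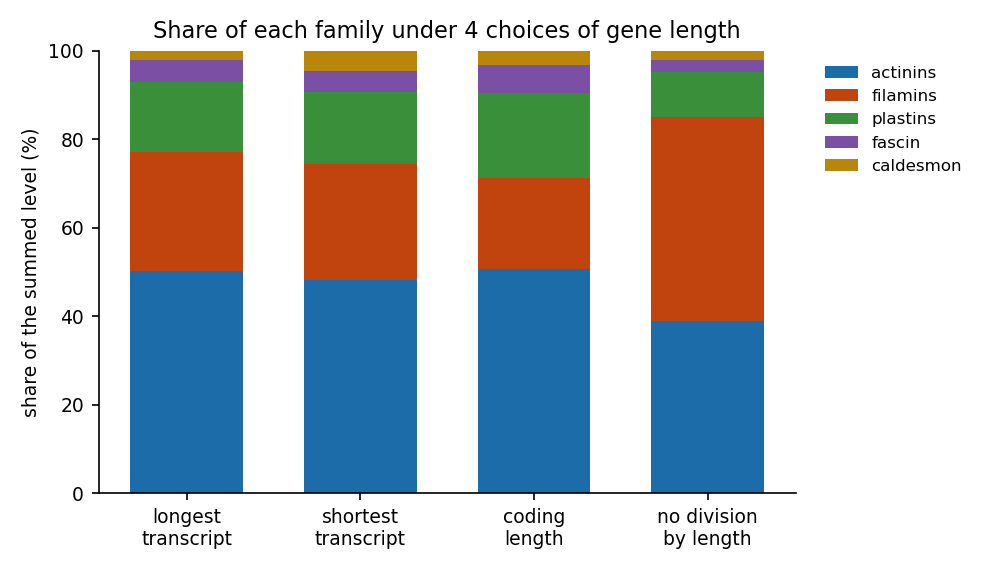
Share (%) of the summed level of the 9 crosslinkers held by each family, as stacked bars for levels per kb of the longest transcript, of the shortest transcript and of coding sequence, and for the mean normalized count with no division by length. The α-actinins hold 50.3, 48.2 and 50.6% in the first 3 bars and 38.8% in the last, where the filamins hold 46.1%.

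For genes of low and moderate level, only 1 combination of whole reads in the 4 libraries gives the deposited mean, and the reads of each library could be recovered. This held for *Lcp1*, *Cald1* and *Pls1*. *Fscn1* allowed 2 combinations and *Flnc* 6, so no values by library are given for them, nor for the 4 genes of highest mean.

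*Lcp1* had 195, 268, 206 and 101 reads in libraries 1 to 4. Normalized to depth these were 158, 227, 213 and 141, with a median of 185. Libraries 2 and 3 were high and libraries 1 and 4 low, a 1.61-fold range, and the exact Poisson intervals (95%) of library 2, 201 to 256, and library 1, 136 to 181, did not overlap.

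*Lcp1* marks leukocytes, which a sort for HF-SCs should remove. Of 8 leukocyte genes, all had a mean above 0 and 3 lay above the median gene, and the highest means were those of *Cd74*, the invariant chain of MHC class II, at 2744 and *Lyz2*, a myeloid lysozyme, at 449. The 7 with a mean under 1000, which leave out *Cd74*, summed to 531, 1342, 1011 and 543 normalized reads in libraries 1 to 4. This sum too was high in libraries 2 and 3, over a 2.53-fold range. *Lyz2* supplied much of it, and without *Lyz2* the sums were 298, 573, 488 and 271. *Itgam*, an integrin of myeloid cells, differed from the sum, with 43.7, 48.4, 23.8 and 26.5 normalized reads. *Lcp1* reads per read of the pan-leukocyte phosphatase *Ptprc* ran from 1.72 to 2.75 across the libraries, and per read of *Laptm5*, a lysosomal protein of blood cells, from 1.16 to 1.53. Among other markers, a sum of 4 endothelial genes was 98.7, 103, 125 and 40.5 in libraries 1 to 4. Libraries 3 and 2 were again highest, but library 1 was close to library 2 and only library 4 was low. The muscle sum given below was highest in library 1. The part of leukocytes in the level of *Lcp1* was not tested. In bulk RNA, fewer cells of a type and less RNA per cell cannot be told apart.

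*Cald1* had 1285, 1057, 747 and 856 reads, or 1039, 897, 773 and 1195 after normalization, with a median of 968. Library 4 was highest and library 3 lowest, and their intervals, 1116 to 1278 and 719 to 831, did not overlap. Caldesmon is abundant in smooth muscle, as is filamin C in striated muscle. Of 9 muscle genes, 0 lay above the median gene, the highest were *Cnn1*, the smooth muscle calponin, at 99.8 and *Acta2*, smooth muscle actin, at 53.3, and the fast myosin *Myh4* was at 0. The 8 with reads summed to 260, 240, 197 and 156 in libraries 1 to 4. *Cnn1* itself had 146, 68.7, 84.9 and 99.1 normalized reads, and without it the sums were 114, 171, 112 and 57.2. The part of muscle cells in the levels of *Cald1* and *Flnc* was not tested.

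*Pls1* had 3, 2, 6 and 6 reads, or 2.43, 1.70, 6.21 and 8.38 after normalization, with a median of 4.32. Its 4 intervals overlapped, and with 17 reads in all, whether the 4.94-fold range exceeds counting error was not tested.

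**Figure D3:**
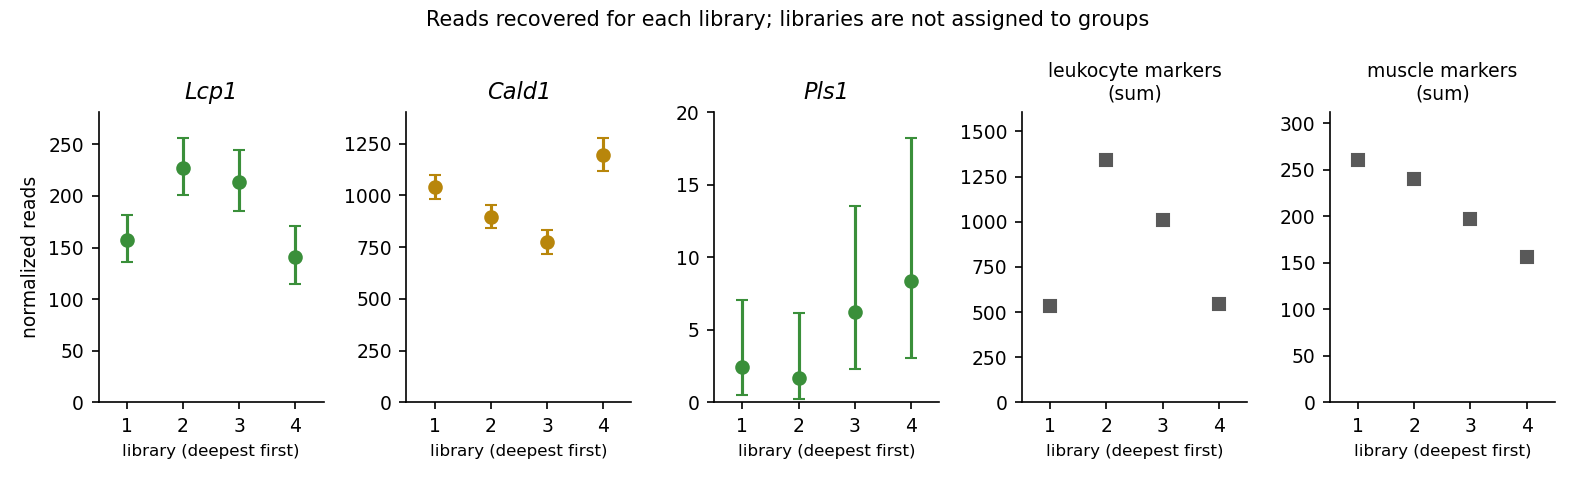
Normalized reads of *Lcp1*, *Cald1* and *Pls1* in each library (points, with exact 95% Poisson intervals, which cover counting error only) and the summed normalized reads of leukocyte and muscle markers (squares), with libraries numbered by depth and not assigned to groups. *Lcp1* and the leukocyte sum are both high in libraries 2 and 3, *Cald1* is highest in library 4 and lowest in library 3, and the muscle sum runs from 260 in library 1 to 156 in library 4.

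A list of 11 HF-SC genes described the sorted cells. It holds *Cd34* and *Itga6*, the CD34 and α6 integrin of the sort, with means of 14575 and 12910, but not Sca1. It also holds *Krt14*, at 90971, whose promoter drives the H2BGFP used in the sort. All 11 lay above the median gene. Their median of 12910 is the value of *Itga6* itself, so the list partly describes the sort. The highest means were those of the basal keratin *Krt5*, 146090, and the bulge keratin *Krt15*, 119883. Markers of other cells were present too, several with means above the lowest of the 11, which was 590. *Col1a1* and *Col1a2*, the fibrillar collagen chains of fibroblasts, had means of 5186 and 4699, *Krt10* and *Krt1*, keratins of suprabasal cells, 7246 and 2033, *Scd1* and *Plin2*, lipid genes abundant in sebocytes, 3085 and 995, and *Dct* and *Pmel*, melanocyte genes, 498 and 219. *Flna*, *Actn1*, *Actn4*, *Pls3* and *Cald1* are made by many of these cell types, and the part of each in their levels was not tested.

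**Figure D4:**
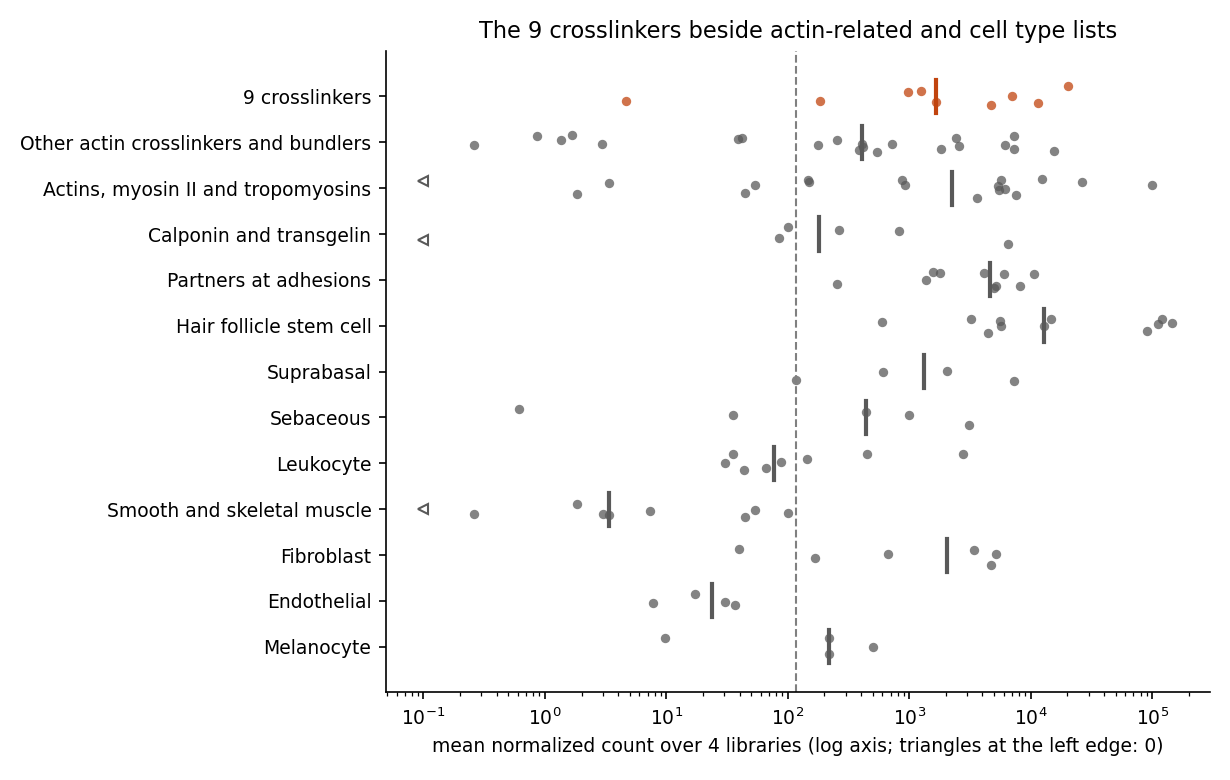
Mean normalized count (log axis) of every gene in each list (points) with the list's median (bar) and the median of all genes with a mean above 0 (dashed line), and genes at 0 as open triangles at the left edge. The 9 crosslinkers have a median of 1650, below HF-SC markers at 12910 and above leukocyte markers at 77.1 and muscle markers at 3.39. The HF-SC list holds *Cd34* and *Itga6*, which were used in the sort.

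A list of 21 other crosslinkers and bundlers also ranged widely, from a mean of 0.259 to 15508. All had a mean above 0, 14 lay above the median gene, and their median was 406 (131 per kb, compared with 470 per kb for the 9). *Macf1*, a spectraplakin that links actin to microtubules, and *Sptan1*, the αII spectrin of the membrane skeleton, had the highest means, 15508 and 7324, which are 663 and 913 per kb. Per kb the highest of the list was *Palld*, the actin-binding palladin, at 1611, a gene named after its values were seen. *Fscn2*, *Fscn3*, *Actn2* and *Actn3* had means under 3.

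RefSeq gives 14 promoter windows for the 9 genes, each of 300 bases from 250 before to 50 after a start, on GRCm38.p6. Both strands were searched for 5 motifs. The TEAD motif GGAATG occurred in windows of 6 of the 9 genes (*Actn4*, *Flna*, *Flnc*, *Pls3*, *Lcp1* and *Cald1*), and 16.6% of 27025 genes with a window held it. By window, it was in 9 of 14 and in 14.7% of all 32851. Several of these windows overlap, as those of *Flnc* do and the upstream pair of *Pls3*. In *Flna* and *Lcp1* the motif was only in a window inside the gene, at chrX:74246485-74246784 and chr14:75136175-75136474. The SP1 box GGGCGG occurred in 7 of the 9 and in 38.2% of genes, and the E-box CANNTG in 6 and in 75.0%. The letters TATAAA of the TATA box occurred in *Cald1* and *Fscn1* and in 15.7% of genes. They began at -31 from the start in *Fscn1* but at -186 in *Cald1*. The CArG box, the site of serum response factor, occurred in 0 of the 9 and in 1.81% of genes. A match describes letters in the window, and no match says only that the letters are not there.

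The windows of *Actn4*, *Flna* and *Pls3* are shown because these had the highest levels per kb of the genes with a TEAD motif. Capitals mark GGAATG or its reverse complement CATTCC, which begin at -216 in *Actn4*, at -146 in *Flna* and at -230 and -179 in *Pls3*, counted from the start. The windows are chr7:28962283-28962582, chrX:74246485-74246784 and chrX:75875133-75875432, all on the minus strand.
Actn4: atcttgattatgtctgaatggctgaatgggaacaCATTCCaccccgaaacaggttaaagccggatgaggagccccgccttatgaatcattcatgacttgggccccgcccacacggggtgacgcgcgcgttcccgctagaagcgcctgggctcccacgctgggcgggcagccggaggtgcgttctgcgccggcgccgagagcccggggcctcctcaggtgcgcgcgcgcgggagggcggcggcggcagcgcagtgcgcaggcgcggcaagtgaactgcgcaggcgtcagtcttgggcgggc
Flna: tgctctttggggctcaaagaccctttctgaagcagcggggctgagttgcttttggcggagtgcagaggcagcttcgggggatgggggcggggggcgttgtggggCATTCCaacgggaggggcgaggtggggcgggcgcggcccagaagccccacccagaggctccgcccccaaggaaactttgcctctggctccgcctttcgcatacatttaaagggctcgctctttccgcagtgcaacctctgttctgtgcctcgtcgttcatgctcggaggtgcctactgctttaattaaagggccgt
Pls3: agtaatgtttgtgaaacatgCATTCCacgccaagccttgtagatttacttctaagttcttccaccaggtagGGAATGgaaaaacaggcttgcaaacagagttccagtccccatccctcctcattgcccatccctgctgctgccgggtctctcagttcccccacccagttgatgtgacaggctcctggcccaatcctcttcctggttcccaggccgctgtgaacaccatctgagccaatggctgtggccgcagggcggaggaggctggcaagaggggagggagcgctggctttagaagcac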

How the data were processed

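RNA from FACS-purified HF-SCs was read as 150-nt paired-end reads, which the authors aligned with HISAT2 2.1.0, converted with SAMtools 1.3.1, counted per gene with HTSeq and normalized with DESeq2. For HTSeq and DESeq2 the version, and for counting the annotation, is not given in the sources used here. The mean normalized count that the authors deposited is a signal, namely reads per gene divided by each library's size factor and averaged over all 4 libraries. The table's other 5 columns hold the authors' comparison (log2 fold change, its standard error, test statistic, p-value and adjusted p-value) and were not used. Columns of values per sample numbered 0.

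Means were divided by the longest complete protein-coding transcript of GENCODE vM1 (build NCBIM37), found for all 9 genes. Coding and 3'UTR sequences came from the same models. Places, promoters and miR-205 came from RefSeq tables on GRCm38.p6, the build named mm10. The table holds no coordinates, and none was converted. Reads per library were sought, after the values had been seen, as whole numbers whose sum of steps equals the deposited mean, in genes with a mean under 1000 and in the members. On simulated means, a single solution came out for 200 of 200 at the mean of *Pls1*, 100 of 100 at that of *Lcp1* and 75 of 100 at that of *Cald1*. Each was the true combination, which a search over all combinations nearly guarantees, so only the share with a single solution is informative. Proteins translated from coding sequence were aligned globally (gap open 11, extend 1). With 1 pooled value per gene no test between groups was run. The genes named are the 9, their paralogs and in each list the 2 genes of highest mean and any gene at 0 where that is said. *Ptprc*, *Laptm5*, *Itgam*, *Palld*, *Cd34*, *Itga6* and *Krt14* were named after their values were seen. An item withheld for evaluation is not reported here and was left out of its list. The 9 and the lists were chosen with earlier results of these data known. Alternatives were other lengths, backgrounds, match lengths and ways to count identity. Software was Biopython 1.88, matplotlib 3.10.9, scipy 1.17.1, pandas 2.3.3, numpy 2.4.6 and Python 3.11.15.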

Additional observations from a re-analysis of the deposited data

How the results depend on the processing

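The count of crosslinkers above the median gene was 8 with all rows as background and 7 among genes with a mean over 50, where *Lcp1* also lay below. The order per kb did not change with the shortest transcript, although *Fscn1* and *Cald1* were then 1.03-fold apart, exchanged *Flna* and *Actn1* with coding length, and moved 5 genes without division by length. Family shares per kb of the shortest transcript were 48.2% for actinins, 26.2% for filamins, 4.70% for fascin and 4.55% for caldesmon. Per kb of coding length they were 20.6% for filamins, 19.4% for plastins, 6.32% for fascin and 3.15% for caldesmon. Without division by length they were 38.8% for actinins, 46.1% for filamins, 10.4% for plastins, 2.65% for fascin and 2.05% for caldesmon. The 3'UTR count of 0 for the seed match was 2 with the 6-base match and 0 with the 8-base match. Identity moved most for *Actn1* and *Actn2*, from 80.2% to 79.7% over the shorter protein, and in the upstream part of the windows alone the SP1 box was in 6 genes in place of 7. No paired analysis was possible because the table holds no value per library that can be tied to a replicate number. Leaving out each library in turn, added after the values were seen and possible only for the genes with recovered reads, gave means of 171 to 199 for *Lcp1*, 903 to 1044 for *Cald1* and 3.44 to 5.67 for *Pls1*. Depth limits *Pls1* and the paralogs with under 12 reads in all, where counting error is 45.8% of the mean or more.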

Other observations

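The filaments that these crosslinkers bind were represented by the nonmuscle actins *Actg1* and *Actb*, with mean normalized counts of 99962 and 26289. Of 18 actin, myosin II and tropomyosin genes, 13 lay above the median gene, with a list median of 2257, and cardiac actin *Actc1* was at 0. Among 6 calponins and transgelins, 3 lay above it. The highest means were those of *Tagln2* at 6449 and *Cnn2*, a calponin of nonmuscle cells, at 816, and the neuronal *Tagln3* was at 0.

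All 10 genes of proteins that meet actinin or filamin at adhesions lay above the median gene, with a median of 4570. The highest means were those of *Ctnna1*, α-catenin of adherens junctions, at 10624 and *Itgb1*, the β1 integrin, at 8116.

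Melanocyte genes, which are no part of the crosslinker set, were highest in library 3. *Dct* had 388, 394, 1041 and 170 normalized reads in libraries 1 to 4, and *Pmel* had 190, 146, 461 and 79.6.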
